A study of Mus musculus with 96 samples.

Results

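Genes of iron and heme handling were followed through a study of traumatic brain injury in the mouse: Hmox1, Fth1, Ftl1, Cp, Hp, Hpx, Slc40a1, Slc11a1 and Tfrc. They were chosen by name for their known function, with earlier results of these data known, and are 9 of the 32594 genes in the deposited tables. Hmox1, Ftl1, Fth1, Cp and Slc11a1 were higher in the hippocampus 3 days after injury than after a sham procedure, and little of this was called later or in the other regions. In vehicle-treated mice the calls of Hmox1, Ftl1 and Fth1 were lost in both settings that allow for choroid plexus tissue in the libraries. Their log2 fold changes of 2.17, 0.89 and 0.34 became 0.40, 0.54 and 0.22 with a choroid plexus score in the fit. With the libraries rich in that tissue left out they were 2.48, 0.97 and 0.23, on a single vehicle-treated sham library. Between injured and sham mice that both received candesartan, every call was kept in both settings. mRNA was sequenced from ipsilateral hippocampus, thalamus and hypothalamus of adult male C57BL/6 mice, aged 8 to 10 weeks at the start, either 3 or 29 days after injury (dpi). Injured mice (TBI) received a moderate controlled cortical impact through a craniectomy on the left, and sham mice had the anesthesia and scalp incision without a craniectomy, so the injured and sham groups also differ by the opening of the skull. Candesartan (CD), an angiotensin receptor blocker, was given at 0.1 mg/kg/day and compared with vehicle (VH, saline with sodium carbonate), in every group from 6 h after the procedure. The 3 dpi mice were injected again at 24 and 48 h, whereas the 29 dpi mice had an osmotic pump implanted at 24 h, so the route differed between the time points. The 4 groups (Sham + VH, Sham + CD, TBI + VH and TBI + CD) had 4 libraries each in every region at each time, which gave 96 libraries in 24 groups. The 4 samples of each group were those with the best RNA, and all mice had been perfused with saline before dissection.

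Iron in the brain is taken up from transferrin through the transferrin receptor, is kept in a safe form inside the ferritin shell and leaves cells through ferroportin. Bleeding into injured tissue releases hemoglobin, which haptoglobin binds, while hemopexin binds free heme. Heme oxygenase 1, which is induced by heme and oxidative stress, opens the heme ring and sets the iron free, after which ferritin takes it up. Iron regulatory proteins couple these steps: when iron is scarce they bind hairpins called iron-responsive elements, which blocks translation of ferritin and ferroportin mRNA and protects transferrin receptor mRNA from decay.

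Those hairpins are shown here because they are the shared control element of the iron genes and act on translation and mRNA stability, which counts of mRNA register only in part. A search of the annotated UTRs for the loop CAGTGN on a stem of 5 pairs below it, with the unpaired C that these elements carry, found 7 sites in 4 of the 9 genes. They are written 5′ to 3′ as DNA in the sense of the mRNA, with the 6-base loop in capitals, from the mm10 assembly with GENCODE transcripts. The sites of the ferritin heavy chain (5′ UTR, chr19:9982732-9982760, plus strand), the ferritin light chain (5′ UTR, chr7:45459779-45459807, minus strand), ferroportin (5′ UTR, chr1:45925465-45925493, minus strand) and 4 of the transferrin receptor (3′ UTR, plus strand, chr16:32631219-32631247, chr16:32631598-32631626, chr16:32631663-32631691 and chr16:32631710-32631738, in that order) read as follows.
Fth1: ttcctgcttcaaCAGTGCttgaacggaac
Ftl1: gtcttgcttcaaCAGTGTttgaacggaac
Slc40a1: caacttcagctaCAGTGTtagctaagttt
Tfrc a: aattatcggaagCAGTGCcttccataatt
Tfrc b: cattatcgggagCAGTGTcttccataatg
Tfrc c: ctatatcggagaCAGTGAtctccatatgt
Tfrc d: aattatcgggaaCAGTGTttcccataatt
At 3 dpi in the hippocampus of vehicle mice both ferritin mRNAs passed the test for a rise and those of ferroportin and the transferrin receptor passed neither threshold, and the difference between these genes was not tested. The remaining genes were Hmox1 (heme oxygenase 1, chr8:75093621-75100589, plus strand), Cp (ceruloplasmin, chr3:19957054-20009145, plus), Hp (haptoglobin, chr8:109575128-109579172, minus), Hpx (hemopexin, chr7:105591613-105600137, minus) and Slc11a1 (a metal transporter of the phagosome membrane in macrophages, chr1:74375195-74386062, plus). The whole genes of the iron-responsive set lie at chr19:9980598-9985098 (Fth1), chr7:45457944-45459884 (Ftl1), chr1:45908068-45926523 (Slc40a1) and chr16:32608920-32632794 (Tfrc). Ferritin has near-identical pseudogene copies that are not among the genes of the tables, and how reads matching several places were counted is not given in the sources used here, so the levels of Fth1 and Ftl1 are uncertain to that extent. Cp overlaps Hps3 on the opposite strand, and Ftl1 overlaps the miRNA gene Gm22133 on its own strand and Gm10252 on the opposite one.

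Library totals ranged from 17150610 to 31253784 counts at 3 dpi and from 6663629 to 38589791 at 29 dpi, and levels are given as CPM (counts scaled to library size). Markers of each region stood in place: 6 hippocampal markers summed to at least 559 CPM in every hippocampal library and to at most 246 CPM in the other libraries, and 6 thalamic markers summed to at least 1152 CPM in thalamus and to at most 299 CPM elsewhere, whereas 6 hypothalamic markers reached 641 CPM in the highest thalamic library and 645 CPM in the lowest hypothalamic library. Hippocampal libraries at 3 dpi differed in their content of choroid plexus, the epithelium that makes cerebrospinal fluid and borders the hippocampus. The sum of 12 choroid plexus markers was 6982, 4544, 196 and 4803 CPM in Sham + VH and 47.9 to 103 CPM in Sham + CD, and was 11.5 to 159 CPM in TBI + VH. In TBI + CD it was 2744, 30.7, 15.1 and 154 CPM. The third TBI + CD library of that set also stood apart for Hmox1 and for hemoglobin mRNA. Where leaving out these libraries ended a call of an iron or heme gene in the 3 dpi hippocampus, the value without them is given.

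Per kb of exon, the storage genes exceeded the others by far in the uninjured brain. In Sham + VH hippocampus at 3 dpi, the mean level per kb of exon was 535 CPM for Fth1, 93.1 CPM for Ftl1 and 18.5 CPM for Tfrc. On the same scale it was 3.12 CPM for Hmox1, 1.57 CPM for Cp, 0.931 CPM for Slc40a1 and 0.543 CPM for Slc11a1. The plasma scavengers Hpx and Hp, which are made mainly by the liver, came last at 0.247 and 0.122 CPM per kb. The 9 genes thus spanned a very wide range of mRNA, and the lowest of them rested on few reads: no library held more than 38 Hp or 20 Hpx counts.

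**Figure D1:**
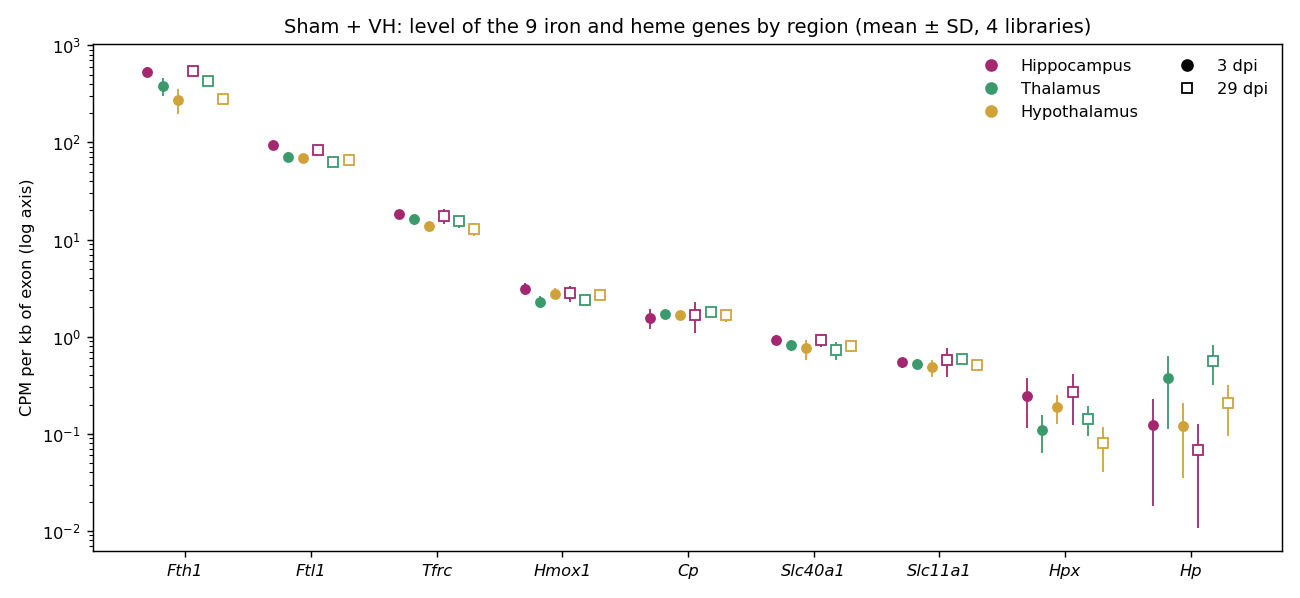
Mean level of the 9 iron and heme genes in Sham + VH libraries, in CPM per kb of exon on a log axis, with error bars of 1 SD over the 4 libraries of each region and time. Fth1, with 535 CPM per kb in hippocampus, and Ftl1 are highest in each region, and Hp, the lowest gene in hippocampus, has its highest level in thalamus.

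Fth1 fell in steps from hippocampus to thalamus to hypothalamus. Its mean level in Sham + VH at 3 dpi was 1855 ± 217 CPM (SD, n = 4) in hippocampus, 1317 ± 270 CPM in thalamus and 952 ± 278 CPM in hypothalamus, and at 29 dpi it was 1891 ± 133, 1480 ± 38.7 and 971 ± 28.3 CPM. By edgeR's quasi-likelihood test with Benjamini-Hochberg adjustment over all genes (the test behind every adjusted p of the 9 genes, with a gene called where its adjusted p was below 0.05 and its log2 fold change exceeded 0.32 in size), each of the 3 steps was called at 3 dpi. The log2 difference of Fth1 was 0.49 between hippocampus and thalamus (adjusted p = 0.0048), 0.95 between hippocampus and hypothalamus (adjusted p = 4.6e-07) and 0.47 between thalamus and hypothalamus (adjusted p = 0.0087). Ftl1 was higher in hippocampus than in thalamus (0.37, adjusted p = 0.015) and hypothalamus (0.43, adjusted p = 0.0044), and thalamus and hypothalamus, 0.06 apart, were not called different. Tfrc was higher in hippocampus than in hypothalamus by 0.41 (adjusted p = 0.00042). Hp went the other way, lower in hippocampus than in thalamus by 1.60 on the log2 scale (adjusted p = 0.041) and higher in thalamus than in hypothalamus by 1.61 (adjusted p = 0.039), on counts of at most 38 reads a library. Each of these Hp calls was lost in 5 of 8 omissions of a library, the former without replicates 1, 2 or 3 of hippocampus or 1 or 2 of thalamus (-1.74 to -0.99, adjusted p up to 0.27) and the latter without replicates 1 or 2 of thalamus or 1, 2 or 3 of hypothalamus (1.01 to 1.67, adjusted p up to 0.27), and the former also with a replicate block (-1.55, adjusted p = 0.051). Hpx was higher in hippocampus than in thalamus by 1.17 (adjusted p = 0.019), and not called without replicate 4 of hippocampus or 2 or 4 of thalamus (down to 0.74, adjusted p up to 0.18). In fits of a region alone, Hp did not pass the filter on low counts in hippocampus, nor Hpx in thalamus or hypothalamus. Against those regions, at either time, both genes were thus tested only because libraries of other regions, where they were higher, passed them through the filter. Fth1 between thalamus and hypothalamus lost its call without replicate 1 of thalamus or 4 of hypothalamus (0.33 in both, adjusted p up to 0.085), and Ftl1 between hippocampus and thalamus without replicate 4 of thalamus (0.31, adjusted p = 0.066).

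The regional calls at 3 dpi came to 3 higher and 1 lower of the 9 genes for hippocampus against thalamus, where 40.9% of all genes were called (19.4% higher and 21.5% lower). They came to 3 higher for hippocampus against hypothalamus (46.7% of all genes, 23.2% higher) and 2 higher for thalamus against hypothalamus (28.6%, 14.7% higher). The shares of the 9 genes lie near those of all genes. At 29 dpi 3 were higher and 1 lower (39.3% of all genes, 19.9% higher and 19.4% lower), 4 were higher (45.0%, 22.2% higher) and 2 were higher (32.9%, 15.6% higher) in the same order of comparisons. The 3 Fth1 steps were called again at 29 dpi (0.37, 0.94 and 0.57), as were Ftl1 in hippocampus against thalamus (0.40, adjusted p = 4.7e-05) and hypothalamus (0.33, adjusted p = 0.00053), and Hp in hippocampus against thalamus (-2.81, adjusted p = 0.00056). The other calls at 29 dpi were Slc40a1 in hippocampus against thalamus (0.38, adjusted p = 0.032), Tfrc (0.44, adjusted p = 0.015) and Hpx (1.31, adjusted p = 0.024) in hippocampus against hypothalamus, and Hp in thalamus against hypothalamus (1.38, adjusted p = 0.031). These 4 were lost in 5, 3, 4 and 4 of 8 omissions, with adjusted p-values up to 0.19, 0.055, 0.095 and 0.12. Without replicate 2 of hippocampus Fth1 against thalamus was at 0.31, inside the fold threshold, and without replicate 2 or 4 of hippocampus Ftl1 against hypothalamus was at 0.32 or 0.31. The regions were compared as separate samples, and regions of the same mouse are not linked in the labels. When the libraries rich in choroid plexus were left out, Fth1 kept its calls between hippocampus and both other regions at both times, while at 3 dpi the difference between thalamus and hypothalamus fell to 0.23 (adjusted p = 0.34), Ftl1 lost both of its calls (0.44 and 0.37, adjusted p = 0.12 and 0.13), and neither Hp (-1.60, adjusted p = 0.29) nor Hpx (1.15, adjusted p = 0.29) was called between hippocampus and thalamus. At 29 dpi Ftl1 against hypothalamus was then at 0.31 (adjusted p = 0.00038), inside the fold threshold, and Slc40a1 (0.04, adjusted p = 0.90), Hpx (0.85, adjusted p = 0.35) and Hp between thalamus and hypothalamus (1.47, adjusted p = 0.085) were not called.

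In vehicle-treated mice 5 of the 8 iron and heme genes that could be tested were called higher after injury in the hippocampus at 3 dpi, and 0 lower. Those 5 were Hmox1, Slc11a1, Ftl1, Cp and Fth1, and 10.7% of all 16756 genes were called in that comparison, 8.99% as higher. The median log2 fold change was 0.45 over the 8 genes and -0.01 over all genes. Hp did not pass the filter on low counts in this region. In bulk tissue a change in the number of cells that hold a transcript and a change in transcript per cell cannot be told apart, and the p-values measure the spread between these samples only.

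Hmox1, whose enzyme breaks down heme, had the largest log2 fold change of the 8 genes tested here, though not with the choroid plexus score in the fit (0.40). It stood at 5.62, 5.37, 4.47 and 6.43 CPM in the 4 Sham + VH libraries and at 30.7, 12.5, 28.7 and 24.0 CPM in TBI + VH. Every injured library was above every sham library, although the second TBI + VH library was below its 3 companions. The log2 fold change was 2.17 (SE 0.67, edgeR adjusted p = 0.038). The call was lost when any of 7 libraries was left out (each of the 4 Sham + VH libraries, or TBI + VH replicate 1, 3 or 4), with fold changes of 2.03 to 2.38 and adjusted p-values up to 0.093 over all 16 omissions. Without the third TBI + CD library, which widens the spread shared by the fit, the log2 fold change was again 2.17, at an adjusted p of 8.6e-06.

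Slc11a1, the phagosomal metal transporter, had the smallest p-value of the 8 genes. Its level was 2.33, 2.0, 1.71 and 2.01 CPM in Sham + VH and 7.06, 3.9, 7.35 and 5.75 CPM in TBI + VH. The groups did not overlap, and the second injured library was again the lowest. The log2 fold change was 1.62 (SE 0.24, adjusted p = 0.00011 by edgeR), and the call held with each of the 16 libraries left out in turn. Microglia and macrophages express this gene, and mRNA of their markers was also higher: 6 microglial markers summed to 137 to 153 CPM in Sham + VH and 230 to 316 CPM in TBI + VH, and all 6 were called higher. The sum of 7 macrophage markers was 5.52 to 9.17 CPM in Sham + VH and 9.51 to 16.8 CPM in TBI + VH, with 3 of the 7 called higher. The part of these cells in the rise of Slc11a1 was not tested.

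The light and heavy chains of ferritin, encoded by Ftl1 and Fth1, were both called higher, and the difference between them was not tested. Ftl1 was at 119, 127, 119 and 134 CPM in Sham + VH and at 254, 181, 260 and 209 CPM in TBI + VH. The groups were fully separate, with a log2 fold change of 0.89 (SE 0.18, adjusted p = 0.0025), and this call survived each omission of a library. Fth1 was at 1542, 1989, 2013 and 1876 CPM in Sham + VH and at 2159, 2572, 2501 and 1932 CPM in TBI + VH. The lowest injured library lay below 2 of the sham libraries, and the log2 fold change of 0.34 (SE 0.11, adjusted p = 0.042) only just passed both thresholds. Fth1 lost its call in 8 of the 16 omissions (replicates 1, 2 and 4 of Sham + VH, 1, 2 and 3 of TBI + VH, and 1 and 3 of Sham + CD, with 0.26 to 0.41 over all 16), with RLE size factors (0.33, adjusted p = 0.051) and without a filter on low counts (0.32, adjusted p = 0.067).

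Ceruloplasmin (Cp), a copper oxidase that loads exported iron onto transferrin, was at 13.4, 14.4, 12 and 20.2 CPM in Sham + VH and at 24.1, 17.8, 23 and 21.4 CPM in TBI + VH. The fourth sham library overlapped the injured range. The log2 fold change was 0.56 (SE 0.15, adjusted p = 0.018), and was not called in 5 of the 16 omissions (replicates 1, 2 and 3 of Sham + VH and 1 and 3 of TBI + VH, adjusted p up to 0.066). Its partner in export, the ferroportin gene Slc40a1, was at 8.79, 7.10, 8.24 and 9.41 CPM in Sham + VH and at 10.7, 7.85, 11.6 and 9.21 CPM in TBI + VH. These groups overlapped, and the log2 fold change of 0.27 (95% interval -0.10 to 0.64, by the normal approximation as for all intervals here) was not called (adjusted p = 0.42).

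The uptake receptor Tfrc did not share the rise. It was at 128, 103, 119 and 107 CPM in Sham + VH and at 97.5, 105, 102 and 105 CPM in TBI + VH, with a log2 fold change of -0.13 (95% interval -0.28 to 0.03, adjusted p = 0.35). The heme scavenger Hpx was at 0.338, 0.222, 0.263 and 0.658 CPM in Sham + VH and at 0.646, 0.588, 0.260 and 0.381 CPM in TBI + VH, where no difference was detectable at this depth (0.31, SE 0.36, adjusted p = 0.66). Hp, the hemoglobin scavenger, was at 0 to 0.387 CPM in Sham + VH and at 0.160 to 0.419 CPM in TBI + VH, and the count of 0 in the first sham library allowed a level of up to 0.127 CPM. No library of this set exceeded 0.437 CPM of Hp.

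**Figure D2:**
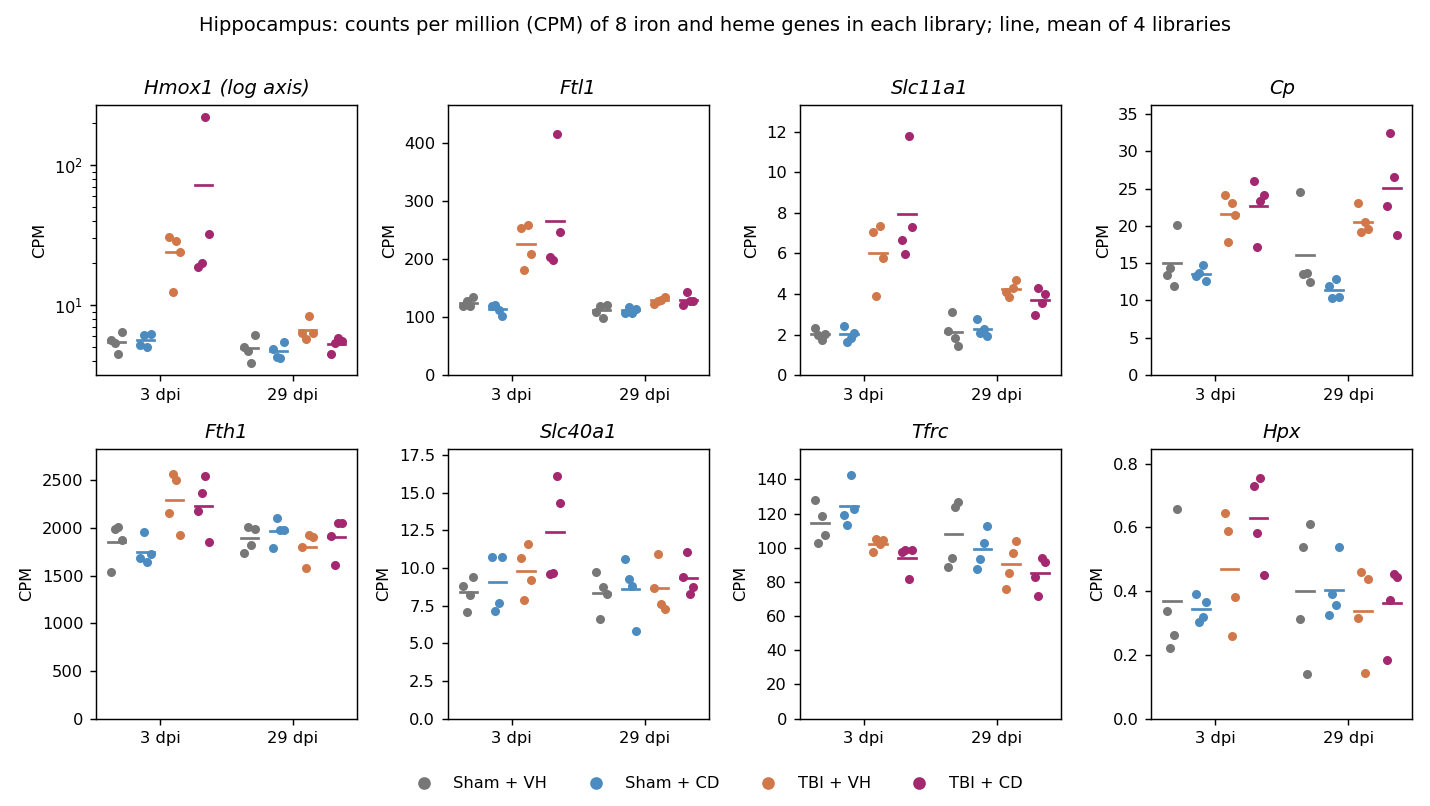
CPM of 8 iron and heme genes in each hippocampal library at 3 and 29 dpi, by group, with a horizontal line at each group mean (n = 4) and a log axis for Hmox1. At 3 dpi the injured libraries of Hmox1, Ftl1 and Slc11a1 lie above all sham libraries, and the third TBI + CD library reaches 220 CPM of Hmox1.

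Of the 4 Sham + VH libraries 3 were rich in choroid plexus and no TBI + VH library was, and 3 of the 5 calls in vehicle mice ended in both settings that allow for it. What ended them was not tested. All 12 choroid plexus markers were called lower in TBI + VH than in Sham + VH. With a score of those markers as a covariate, Slc11a1 (1.34, adjusted p = 0.037) and Cp (0.84, adjusted p = 0.035) kept their calls. Ftl1 was then at 0.54 (adjusted p = 0.34), Fth1 at 0.22 (adjusted p = 0.56) and Hmox1 at 0.40 (adjusted p = 0.89). With the 4 libraries above 1000 CPM of the markers left out instead, a choice made after seeing the data that leaves a single Sham + VH library assumed to vary like the others, Slc11a1 was at 1.86 (adjusted p = 0.038) and Cp at 0.89 (adjusted p = 0.034). Hmox1 was at 2.48 (adjusted p = 0.33), Ftl1 at 0.97 (adjusted p = 0.12) and Fth1 at 0.23 (adjusted p = 0.58). The comparison within candesartan-treated mice, whose sham libraries were all poor in choroid plexus, kept its 7 calls in both settings.

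In candesartan-treated mice the same question, TBI + CD against Sham + CD, gave 6 higher and 1 lower of the 8 tested genes, where 20.1% of all genes were called (14.4% higher and 5.67% lower). The median log2 fold change was 0.85 for the 8 genes and -0.00 for all genes. Hmox1 was at 5.17, 6.14, 5.03 and 6.19 CPM in Sham + CD and at 18.7, 20.1, 220 and 32.5 CPM in TBI + CD. No sham library reached an injured library, but the third injured library was far above the other 3. The log2 fold change was 3.75 (SE 0.67, adjusted p = 0.00043), and 2.14 (adjusted p = 1.5e-05) without that library.

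Slc11a1 was at 2.44, 1.64, 1.85 and 2.10 CPM in Sham + CD and at 6.66, 5.95, 11.8 and 7.29 CPM in TBI + CD, a log2 fold change of 2.03 (SE 0.24, adjusted p = 7.1e-06). Ftl1 was at 119, 120, 112 and 102 CPM in Sham + CD and at 204, 199, 415 and 246 CPM in TBI + CD (1.28, SE 0.18, adjusted p = 5.9e-05). Both genes separated the groups completely, and both had their highest value in the third TBI + CD library. Without it Slc11a1 was at 1.79 and Ftl1 at 0.99, each at an adjusted p of 8.5e-06. The microglial sum was 138 to 157 CPM in Sham + CD and 273 to 355 CPM in TBI + CD, and the macrophage sum was 4.92 to 7.47 and 9.95 to 21.6 CPM, with 6 of 6 and 6 of 7 markers called higher.

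Fth1 was at 1681, 1957, 1640 and 1723 CPM in Sham + CD and at 2175, 2365, 2551 and 1856 CPM in TBI + CD, with a log2 fold change of 0.40 (SE 0.11, adjusted p = 0.0076) and an overlap through the fourth injured library. Cp was at 13.2, 13.7, 14.8 and 12.6 CPM in Sham + CD and at 26.1, 17.1, 23.3 and 24.1 CPM in TBI + CD, with no overlap (0.78, SE 0.15, adjusted p = 0.00086). Both remained called without the third TBI + CD library, Fth1 at 0.34 (adjusted p = 0.028).

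Slc40a1 and Tfrc passed the test in candesartan-treated mice in opposite directions. Slc40a1 was at 10.7, 7.13, 7.68 and 10.8 CPM in Sham + CD and at 9.62, 9.66, 16.1 and 14.3 CPM in TBI + CD, with an overlap and a log2 fold change of 0.50 (SE 0.19, adjusted p = 0.047). This call was lost in 6 of the 16 omissions (replicates 1 and 4 of Sham + VH, 2 and 3 of Sham + CD, and 3 and 4 of TBI + CD), and with the compared libraries alone (0.51, adjusted p = 0.074), and without the third TBI + CD library the log2 fold change was 0.37 (adjusted p = 0.16). Tfrc was at 119, 114, 143 and 122 CPM in Sham + CD and at 97.6, 98.5, 81.5 and 98.8 CPM in TBI + CD, so that every injured library was below every sham library. It fell by 0.36 on the log2 scale (SE 0.08, adjusted p = 0.0024), and by 0.28 (adjusted p = 0.015) without the third TBI + CD library, which is inside the fold threshold, as it was without replicate 3 of Sham + CD (by 0.28). Hpx was at 0.390, 0.303, 0.318 and 0.364 CPM in Sham + CD and at 0.729, 0.583, 0.754 and 0.451 CPM in TBI + CD. These groups did not overlap, yet the difference of 0.91 (SE 0.36) did not pass the test (adjusted p = 0.062). It passed without replicate 4 of Sham + VH (adjusted p = 0.036) or of TBI + CD (adjusted p = 0.047), and with the compared libraries alone (adjusted p = 0.030).

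**Figure D3:**
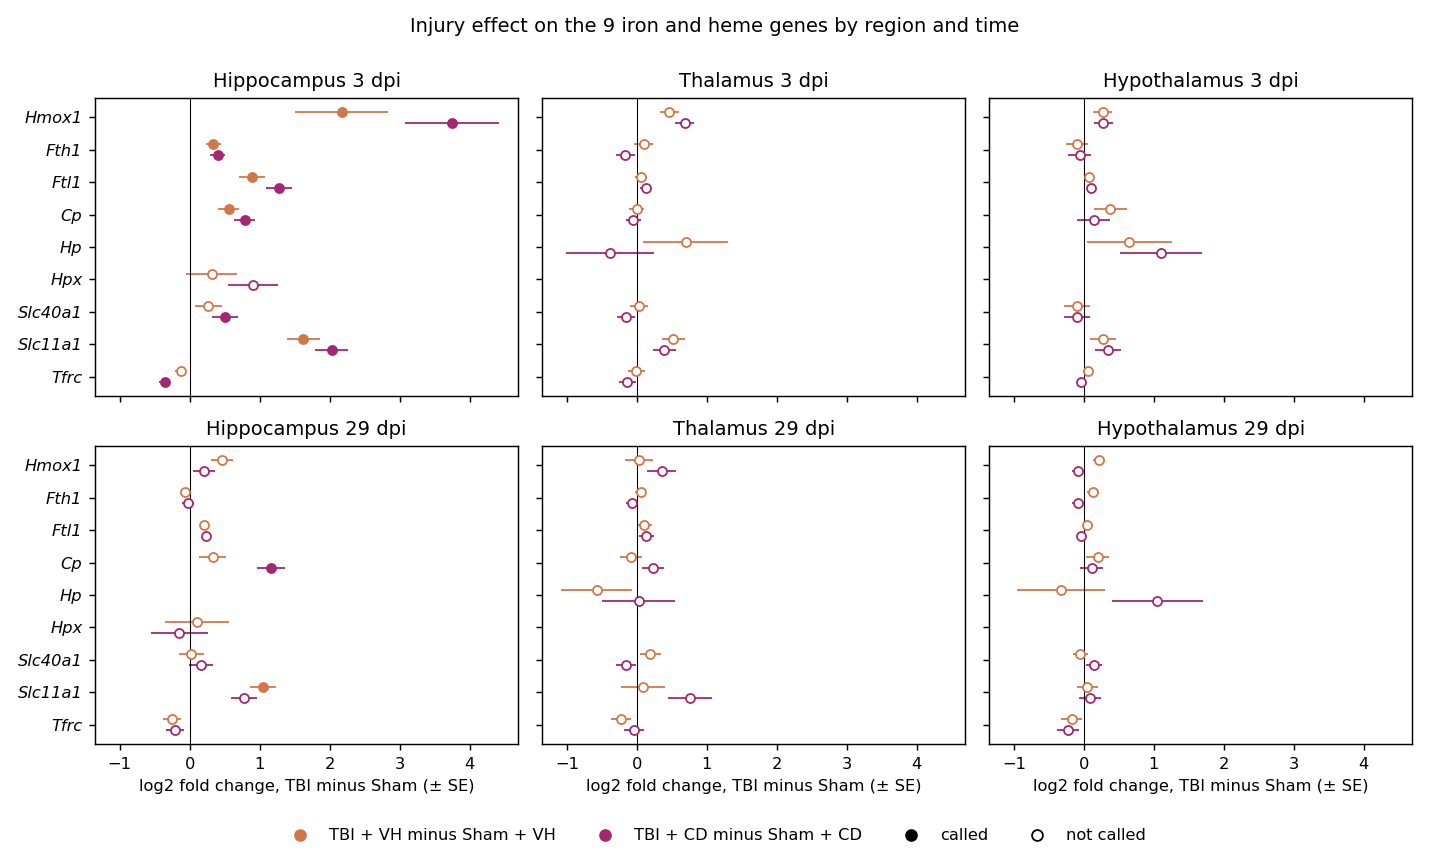
Log2 fold change of TBI against Sham for each iron and heme gene that was tested, with its SE, in vehicle-treated and candesartan-treated mice, in 6 panels for region and time. Filled points were called, and they lie in the hippocampus: 5 in vehicle-treated and 7 in candesartan-treated mice at 3 dpi, and Slc11a1 and Cp at 29 dpi.

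TBI + CD was also compared with Sham + VH, which shares its control libraries with the vehicle comparison and its injured libraries with the candesartan comparison. Of the 8 genes, 5 were called higher (12.1% of all genes were called, 10.3% higher): Hmox1 at 3.78 (adjusted p = 0.00063), Slc11a1 at 2.02 (adjusted p = 8.9e-06), Ftl1 at 1.13 (adjusted p = 0.00028), Cp at 0.62 (adjusted p = 0.0079) and Slc40a1 at 0.61 (adjusted p = 0.033). Tfrc fell by 0.25 on the log2 scale (adjusted p = 0.043), which is inside the fold threshold, and Fth1 was not called (0.30, adjusted p = 0.057). Without the third TBI + CD library Hmox1 was at 2.16 and Slc40a1, at 0.46, was no longer called (adjusted p = 0.13). Leaving out TBI + CD replicate 4, or Sham + VH replicate 1, 2 or 3, also ended the call of Slc40a1 in this comparison, with adjusted p-values up to 0.093. With the choroid plexus score in the fit neither Hmox1 (2.07, adjusted p = 0.12) nor Slc40a1 (0.40, adjusted p = 0.37) was called, and with the choroid-rich libraries left out they were at 4.40 (adjusted p = 0.055) and 0.75 (adjusted p = 0.19), while Ftl1, Cp and Slc11a1 were called in both settings.

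No effect of candesartan alone was called for these genes. In sham mice at 3 dpi, 0 of the 8 genes were called in the hippocampus by edgeR (1.50% of all genes), 0 had an unadjusted p below 0.05, DESeq2 called 0, and their log2 differences lay between -0.16 and 0.11. With the choroid-rich libraries left out, again 0 were called, with Fth1 the lowest at -0.21 and Hpx the highest at 0.38, and with the choroid plexus score 0 were called, with Hmox1 at -1.66 (adjusted p = 0.72). In injured mice 0 of the 8 were called by edgeR (0% of all genes) and 0 by DESeq2, and 1 had an unadjusted p below 0.05. That gene was Hmox1, higher in TBI + CD than in TBI + VH by 1.61 on the log2 scale (95% interval 0.46 to 2.75, adjusted p = 0.999), and without the third TBI + CD library the difference was -0.01. The interaction of candesartan and injury was called for 0 of the 8 genes by edgeR (0% of all genes) and by DESeq2, with 0 at an unadjusted p below 0.05. For Hmox1 it was 1.57 (95% interval -0.27 to 3.42, adjusted p = 0.50), and -0.03 without the same library. Calls of Slc40a1 and Tfrc in candesartan-treated mice and not in vehicle-treated mice are therefore not shown to differ by treatment.

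**Figure D4:**
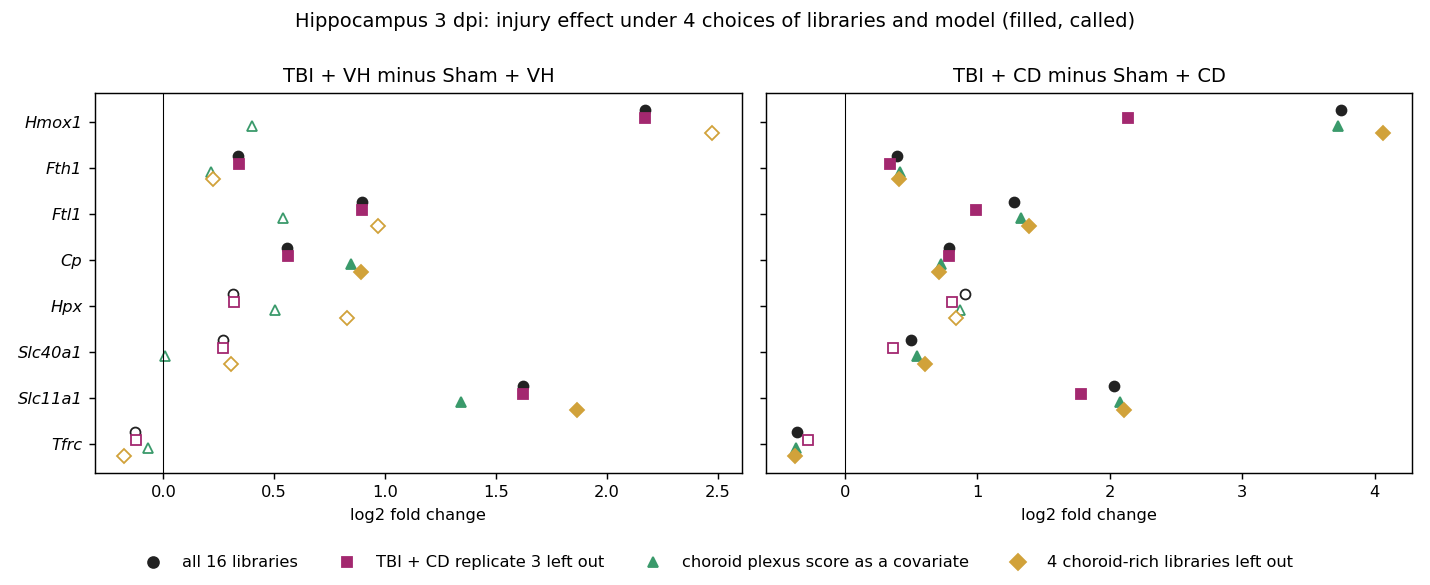
Log2 fold change of TBI against Sham in the hippocampus at 3 dpi, for vehicle-treated and candesartan-treated mice, under 4 choices of libraries and covariate, with filled points for called values. In vehicle-treated mice Hmox1, Ftl1 and Fth1 are not called in the 2 choroid plexus settings, where Hmox1 is at 0.40 and 2.48 and Ftl1 at 0.54 and 0.97, whereas Slc11a1 and Cp are, and in candesartan-treated mice leaving out TBI + CD replicate 3 lowers Hmox1 from 3.75 to 2.14.

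Several of the genes followed Hmox1 from library to library within the 8 injured hippocampi of 3 dpi. Ftl1 had the highest Pearson's r and Slc40a1 the highest Spearman's rho. For Ftl1 Pearson's r was 0.98 (exact permutation p = 0.00040, 0.0016 after Benjamini-Hochberg adjustment over 8 relations) and Spearman's rho was 0.88 (exact permutation p = 0.0072, adjusted 0.029). Leaving out the 2 libraries farthest from the median Hmox1 level, TBI + CD replicate 3 and TBI + VH replicate 2, left r = 0.91 for Ftl1 over 6 libraries. Slc40a1 gave r = 0.86 (exact permutation p = 0.00037, adjusted 0.0016), rho = 0.90 (exact permutation p = 0.0046, adjusted 0.029) and r = 0.78 without those 2 libraries. Slc11a1 gave r = 0.91 (exact permutation p = 0.0017, adjusted 0.0046), rho = 0.83 (exact permutation p = 0.015, adjusted 0.041) and r = 0.66 without them. The 8 libraries pool both treatments.

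Tfrc ran against Hmox1 with r = -0.92 (exact permutation p = 0.022, adjusted 0.043), but rho was -0.55 (exact permutation p = 0.17, adjusted 0.34) and r was 0.08 without the 2 libraries, so that relation rested on them. Hbb-bs, the adult beta globin mRNA of red cells, gave r = 0.75 (exact permutation p = 0.085, adjusted 0.14), rho = 0.29 (exact permutation p = 0.50, adjusted 0.57) and r = 0.05 without them. Fth1 (r = 0.19), Cp (r = 0.36) and Hpx (r = 0.25) gave no relation that passed the test, with exact permutation p-values of 0.72, 0.39 and 0.56. The relations were computed on the full set of 8 libraries, and their p-values do not remove the part of choroid plexus or injury size that the libraries share.

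**Figure D5:**
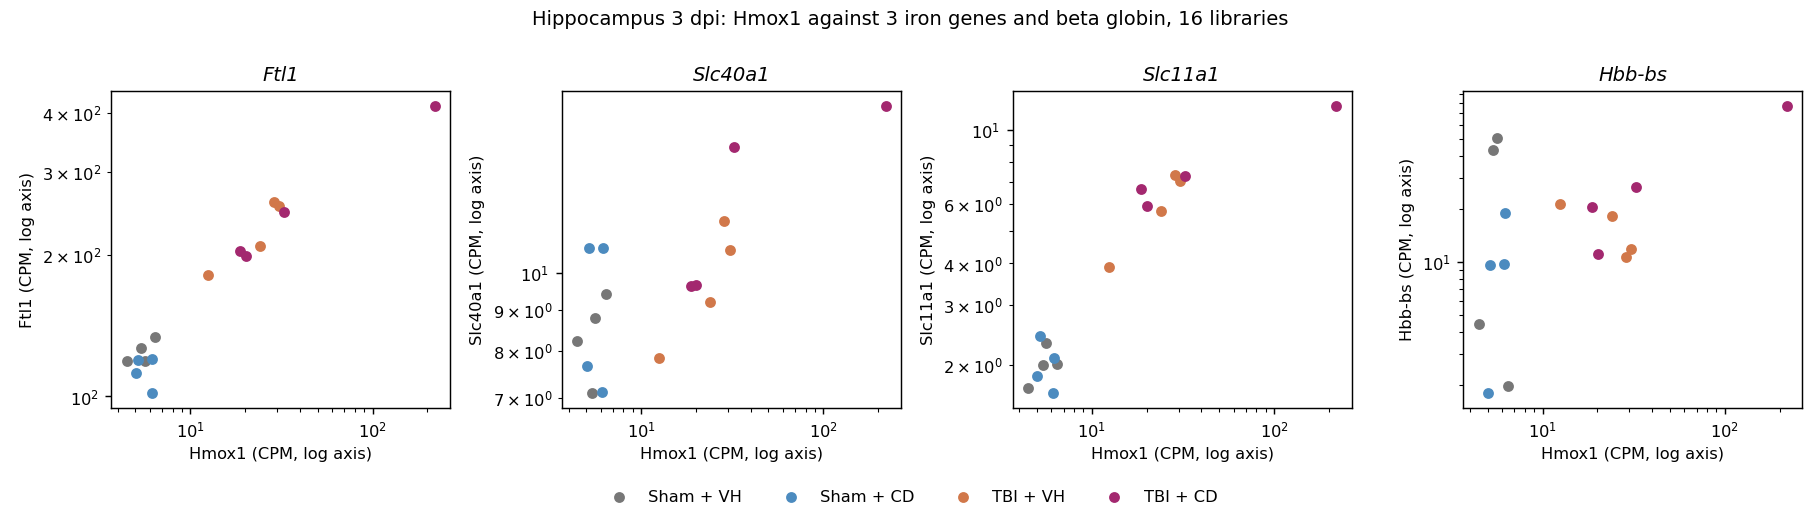
Hmox1 against Ftl1, Slc40a1, Slc11a1 and Hbb-bs, in CPM on log axes, in the 16 hippocampal libraries of 3 dpi by group. Over the 8 injured libraries Ftl1 rises with Hmox1 (r = 0.98), and TBI + CD replicate 3 is at the top of each panel.

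Hemoglobin mRNA was checked beside these genes because hemorrhage is a source of heme. The sum of 3 erythroid markers (Hba-a2, Hbb-bs and Alas2) was 102, 93.0, 10.7 and 4.88 CPM in Sham + VH and 25.1, 46.5, 22.2 and 39.5 CPM in TBI + VH at 3 dpi in the hippocampus. It was 25.8, 20.4, 5.72 and 43.4 CPM in Sham + CD and 45.3, 24.1, 169 and 57.4 CPM in TBI + CD. None of the 3 markers was called after injury in either treatment, and the library with the most, TBI + CD replicate 3, was also the library with 220 CPM of Hmox1. Its part in the Hmox1 level of that library was not tested.

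The other genes of iron and heme metabolism were counted from lists named by function. Of 52 such genes 50 were in the tables and 45 were tested in the hippocampus at 3 dpi, where TBI + VH had 7 higher and 3 lower than Sham + VH (22.2%, beside 10.7% of all genes), with a median of 0.09. Transport and uptake held most of them, 4 higher and 2 lower of 12 with a median log2 fold change of 0.34. Lcn2, which binds bacterial iron carriers, went from 0.448 to 27.2 CPM (5.97, adjusted p = 3.5e-06), Cybrd1, a ferric reductase, from 7.41 to 22.7 CPM (1.65, adjusted p = 9.9e-06), and Trf, which encodes transferrin, from 279 to 640 CPM (1.23, adjusted p = 0.00018). Steap1 and Steap2 were the 2 lower genes, at -3.99 (adjusted p = 0.0041) and -1.37 (adjusted p = 0.0044), and both were also lower in Sham + CD than in Sham + VH (-4.78 and -1.43, adjusted p = 0.024 and 0.029). Of the choroid plexus markers 12 of 12 and 11 of 12 were lower in the same comparisons, and neither gene was called with the choroid plexus score in the fit (0.23 and -0.07) or with the choroid-rich libraries left out (-0.17 and 0.078).

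Steap3, the endosomal ferric reductase, completed the uptake list with a rise from 6.77 to 13 CPM (0.98, adjusted p = 4.0e-05). Among 9 regulators 2 were higher and 1 lower: Nfe2l2, the oxidative stress factor Nrf2 that drives Hmox1 and the ferritin genes, rose from 17.7 to 32.3 CPM (0.91, adjusted p = 5.0e-05), Hfe by 0.67 (adjusted p = 0.029), and Bmp6 was at -1.24 (adjusted p = 0.041). Bmp6 was also lower in Sham + CD than in Sham + VH (-1.64, adjusted p = 0.046), as were 11 of the 12 choroid plexus markers, and in TBI + VH it was not called with the score (0.35) or without the choroid-rich libraries (0.048). In these settings Lcn2 (5.22 and 7.69), Cybrd1, Steap3 and Nfe2l2 were called in both, Trf was at 1.01 (adjusted p = 0.042) and 0.96 (adjusted p = 0.073), and Hfe at 1.03 (adjusted p = 0.054) and 1.25 (adjusted p = 0.038). Leaving out single libraries ended the calls of Bmp6 (each Sham + VH library but replicate 3, or any TBI + VH library, adjusted p up to 0.12) and Hfe (replicates 2 and 3 of Sham + VH, 1 and 3 of TBI + VH, adjusted p up to 0.12), and Hfe was not called with the compared libraries alone (0.67, adjusted p = 0.058). Of 8 genes of heme breakdown and transport Cd163, the macrophage receptor for haptoglobin with hemoglobin, was the single call (0.73, adjusted p = 0.037), which was lost in both settings (0.79 and 0.58, adjusted p = 0.25 and 0.46), by DESeq2 (adjusted p = 0.077), with a replicate block (adjusted p = 0.051), without a filter on low counts (adjusted p = 0.068), with the compared libraries alone (adjusted p = 0.087) and without replicates 1 or 2 of Sham + VH or 1, 3 or 4 of TBI + VH (adjusted p up to 0.13). Beside the 10.7% of all genes called, 0 of 8 genes of heme synthesis, 0 of 7 of mitochondrial iron and storage and 0 of 1 further export gene (Heph, -0.24, adjusted p = 0.18) were called. In candesartan-treated mice 12 of the 45 were higher and 0 lower (26.7%, beside 20.1% of all genes), among them again Lcn2 (5.16), Cybrd1 (1.63), Trf (1.28), Steap3 (1.07) and Nfe2l2 (1.31), with none of heme synthesis. These 12 were called in both choroid plexus settings and without the third TBI + CD library.

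At 29 dpi little of the pattern was called in the hippocampus. Slc11a1 was the single call of 8 in TBI + VH against Sham + VH, where 0.529% of all genes were called (0.523% higher). It was at 2.18, 3.09, 1.82 and 1.43 CPM in Sham + VH and at 4.09, 3.87, 4.28 and 4.71 CPM in TBI + VH, with no overlap (1.04, SE 0.19, adjusted p = 0.0097). The call was lost without Sham + VH replicate 3 (0.96, adjusted p = 0.059) or TBI + VH replicate 4 (0.98, adjusted p = 0.052) and without the choroid-rich libraries (0.99, adjusted p = 0.14) or with the compared libraries alone (1.04, adjusted p = 0.11). The microglial sum was 140 to 174 CPM in Sham + VH and 173 to 181 CPM in TBI + VH, and the macrophage sum was 5.65 to 11.4 and 9.77 to 13.3 CPM.

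Ftl1 at 29 dpi was 109, 120, 98.8 and 121 CPM in Sham + VH and 123, 127, 130 and 134 CPM in TBI + VH. The groups did not overlap, but the difference of 0.21 (SE 0.07) did not pass the test across all genes (adjusted p = 0.28). Hmox1 was at 4.98, 4.71, 3.87 and 6.11 CPM in Sham + VH and 6.28, 5.71, 8.34 and 6.36 CPM in TBI + VH (0.47, 95% interval 0.16 to 0.77, adjusted p = 0.34). Fth1 was at -0.06, Slc40a1 at 0.02 and Tfrc at -0.25 (adjusted p = 0.96, 1.0 and 0.66).

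Cp was the single call of 8 by edgeR in TBI + CD against Sham + CD at 29 dpi (0.356% of all genes, 0.351% higher). It was at 11.9, 10.3, 12.9 and 10.5 CPM in Sham + CD and at 22.7, 32.4, 26.5 and 18.8 CPM in TBI + CD, with no overlap (1.16, SE 0.20, adjusted p = 0.011). It lost the call when TBI + CD replicate 2, or Sham + CD replicate 2 or 4, was left out (adjusted p up to 0.069), and kept it with the choroid plexus score in the fit (1.04, adjusted p = 0.0097). The sum of 6 markers of fibroblasts and leptomeninges was 64.0 to 110 CPM in Sham + CD and 129 to 221 CPM in TBI + CD, and its part in the rise of Cp was not tested. Slc11a1 was at 2.77, 2.05, 2.27 and 1.94 CPM in Sham + CD and at 2.97, 4.30, 3.56 and 4.01 CPM in TBI + CD, separate but not called by edgeR (0.77, adjusted p = 0.078), and called by DESeq2 (0.79, adjusted p = 0.010) or without replicate 2 of Sham + VH (0.78, adjusted p = 0.043).

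The Cp level of Sham + VH at 29 dpi, 24.6, 13.6, 13.7 and 12.4 CPM, included a first library above the whole TBI + VH range of 19.2 to 23.1 CPM and 3 libraries below it, and that comparison was not called (0.33, adjusted p = 0.76). TBI + CD against Sham + VH gave 0 calls of 8 by edgeR (0.119% of all genes), with 4 genes at an unadjusted p below 0.05, and 1 call, Slc11a1, by DESeq2. Without Sham + VH replicate 1 Cp was called there (0.93, adjusted p = 0.014). Candesartan in sham mice, candesartan in injured mice and the interaction gave 0 calls of 8 each by edgeR and by DESeq2 (0% of all genes in each), with 1 gene at an unadjusted p below 0.05 in each. The interaction for Cp was 0.83 (SE 0.28, unadjusted p = 0.0076, adjusted p = 0.89 across all genes by edgeR). Of the 45 tested genes of the wider iron lists 1 was called at this time (2.22%, in TBI + VH against Sham + VH, beside 0.529% of all genes), Cybrd1, whose level was 6.09 ± 0.80 CPM in Sham + VH against 10.2 ± 0.76 CPM after injury (0.77, adjusted p = 0.0087).

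The injury effect of the hippocampus at 3 dpi was also compared with that at 29 dpi as a difference of 2 contrasts in the vehicle mice. Of the 8 genes tested 0 were called by edgeR (3.16% of all genes were), with 3 at an unadjusted p below 0.05. Ftl1 came nearest, with an effect larger at 3 dpi by 0.68 (SE 0.21, adjusted p = 0.071 by edgeR), and DESeq2 called it. Hmox1 differed by 1.68 (SE 0.75, adjusted p = 0.33), Fth1 by 0.40 (adjusted p = 0.16) and Slc11a1 by 0.57 (adjusted p = 0.49). A decline from 3 to 29 dpi was therefore not shown for any of them by edgeR.

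In the thalamus, which lies farther from the impact, no iron or heme gene was called in vehicle-treated mice at 3 dpi, although Hmox1 and Slc11a1 stood higher in every injured library. Hmox1 was at 4.68, 3.53, 4.24 and 3.62 CPM in Sham + VH and at 6.17, 5.79, 4.72 and 5.39 CPM in TBI + VH. These did not overlap, but 0 of the 8 tested genes were called by edgeR (0.298% of all genes) or DESeq2, and 2 had an unadjusted p below 0.05: Hmox1 (0.46, SE 0.14, adjusted p = 0.35) and Slc11a1 (0.52, SE 0.17, adjusted p = 0.48). Slc11a1 was at 2.15, 2.01, 2.03 and 1.61 CPM in Sham + VH and 3.32, 2.89, 2.25 and 2.76 CPM in TBI + VH. The microglial sum was 103 to 125 and 135 to 182 CPM in the same groups.

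Hmox1 was called in the thalamus of TBI + CD against Sham + VH (1 of 8, 0.418% of all genes). It was at 6.16, 5.81, 7.58 and 5.73 CPM in TBI + CD, all above the Sham + VH range, with a log2 fold change of 0.66 (SE 0.14, adjusted p = 0.042). The call was lost in 10 of the 16 omissions: replicates 1, 2 and 3 of TBI + CD, replicate 2 of TBI + VH, replicates 2, 3 and 4 of Sham + VH, and replicates 1, 3 and 4 of Sham + CD, each left out in turn, with values of 0.56 to 0.70 and adjusted p-values up to 0.18. It was also lost without a filter on low counts (0.66, adjusted p = 0.056), with the compared libraries alone (0.66, adjusted p = 0.14) and without the choroid-rich libraries (0.82, adjusted p = 0.066). Against Sham + CD, at 4.37, 3.16, 4.11 and 4.12 CPM, the difference was 0.69 (SE 0.14) and missed the threshold (adjusted p = 0.058, 0 of 8 called, 0.179% of all genes), with 2 genes at an unadjusted p below 0.05. It passed by DESeq2 (adjusted p = 0.0038), with a replicate block (0.69, adjusted p = 0.044) and with the choroid plexus score (0.73, adjusted p = 0.022).

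None of the 8 genes tested was called in the thalamus at 29 dpi or in the hypothalamus at either time, in any of the 6 comparisons, by edgeR or DESeq2. In TBI + VH against Sham + VH, 0% of all genes were called in those sets other than the hypothalamus at 29 dpi (0.00583%), and the counts of all genes with an unadjusted p below 0.05 were 419, 577 and 479. In every other comparison of those sets edgeR called 0% of all genes, so the lack of calls is not particular to the iron and heme genes. Over the 6 comparisons 0 to 3 of the 8 tested genes had an unadjusted p below 0.05. At 29 dpi the fourth thalamic TBI + CD library was the highest of 16 for Hmox1 (7.10 CPM), Slc11a1 (6.08 CPM), Cp (30.0 CPM) and Ftl1 (127 CPM), and it was also the only TBI + CD library there above 1000 CPM of choroid plexus markers (1456 CPM). In the hypothalamus at 3 dpi Slc11a1 was at 1.61, 1.98, 2.17 and 1.39 CPM in Sham + VH and 2.55, 3.16, 3.01 and 1.88 CPM in TBI + CD (0.58, 95% interval 0.22 to 0.94, adjusted p = 0.99).

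The hypothalamus kept Hmox1 within a narrow range. It was at 4.33, 4.63, 4.87 and 4.83 CPM in Sham + VH and at 5.21, 5.67, 5.37 and 5.52 CPM in TBI + VH at 29 dpi, which did not overlap at a log2 difference of 0.22 (SE 0.09, adjusted p = 1.0). The intervals for vehicle-treated mice at 3 dpi there ran from -0.41 to 0.22 for Fth1, from -0.04 to 0.18 for Ftl1, from -0.07 to 0.17 for Tfrc and from -0.09 to 0.63 for Slc11a1. Hpx, with at most 20 counts in any library, was not tested in the injury and drug comparisons within thalamus or hypothalamus. Hp was highest in the thalamus and had its widest range in CPM there, from 0.0931 to 1.68 CPM at 3 dpi and from 0.157 to 1.29 CPM at 29 dpi. It was called in no injury or drug comparison.

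The injury effect in vehicle-treated mice was larger in the hippocampus than elsewhere for 2 of the 9 genes at 3 dpi, by a direct test of the difference. For Ftl1 the effect exceeded that in the thalamus by 0.81 (SE 0.19, adjusted p = 0.0047) and that in the hypothalamus by 0.81 (adjusted p = 0.0032). For Slc11a1 it exceeded them by 1.07 (SE 0.28, adjusted p = 0.018) and 1.33 (SE 0.28, adjusted p = 0.0012). Of all genes 3.88% (3.51% higher) and 5.82% (4.92% higher) were called in the comparisons with thalamus and hypothalamus. Hmox1 had the largest such differences, 1.68 (SE 0.62) and 1.89 (SE 0.60), but did not pass (adjusted p = 0.15 and 0.053), and DESeq2 called the latter (adjusted p = 0.023). Slc11a1 against the thalamus was not called without replicate 1 or 3 of hippocampal TBI + VH or replicate 3 of thalamic TBI + VH (0.96 to 0.98, adjusted p up to 0.066). Without the choroid-rich libraries Slc11a1 against the hypothalamus was the single call left, and Ftl1 was at 0.74 (adjusted p = 0.21) and 0.86 (adjusted p = 0.056). At 29 dpi 0 of the 9 passed by edgeR (0.0223% and 0.0558% of all genes) or DESeq2, with 1 gene at an unadjusted p below 0.05 in each, and Slc11a1 differed by 0.94 (adjusted p = 0.88) and 0.99 (adjusted p = 0.65).

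Across the 24 group means the 9 genes varied to different extents on the log2 scale, by 3.50 for Hmox1, 2.47 for Hp, 2.07 for Slc11a1, 1.96 for Hpx, 1.57 for Ftl1, 1.37 for Fth1 and 1.11 for Cp, and by 0.98 for Slc40a1 and 0.84 for Tfrc. The genes most like each of them over these 24 means, among genes that averaged at least 1 CPM, were found by Pearson's r of mean log2 CPM. They were Irgm1 (0.98), Rab3il1 (0.97) and Prc1 (0.96) for Hmox1, and C3ar1 (0.98), Adap2 (0.97) and Mpeg1 (0.97) for Slc11a1. For Ftl1 they were Arhgdib, Itgb5 and Fgd2 (0.98 each), and for Fth1 Grm3 (0.99), Fjx1 (0.98) and Ccdc124 (0.98). Cp was followed by Mrc1 (0.88), Col3a1 (0.84) and Col1a1 (0.83), Slc40a1 by Arap3 (0.92), Ncln (0.90) and Ykt6 (0.90), and Tfrc by Qrsl1 (0.93), Mtmr3 (0.92) and Scamp5 (0.90). For the scarce Hp (Prom2, Fgd3 and Casq2, 0.92 each) and Hpx (Col20a1, Card6 and Thap7, 0.87 each) the means rest on few counts. These are descriptions over groups that share regions and a few extreme groups, with no test.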

How the data were processed

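The authors prepared stranded mRNA libraries, aligned reads to mm10 with MapSplice and counted them per gene with HTSeq 0.9.1. Their processing notes also name bcl2fastq and DESeq2 1.16.1. The deposited files hold raw counts per gene in 2 tables, 1 for each time with 48 libraries, and 0 columns lacked a sample. The annotation, strand setting and rule for reads with several matches are not given in the sources used here. The 9 genes, the pathway lists and the marker lists were chosen with earlier results of these data known.

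Counts were fitted with edgeR 4.0.16 (quasi-likelihood, TMM factors, filterByExpr) in R 4.3.3, on the 16 libraries of each region and time. Regional comparisons used the 48 libraries of a time, and the comparison of times used both hippocampal sets. A gene was called at a Benjamini-Hochberg adjusted p below 0.05, over all genes tested, with an absolute log2 fold change above 0.32, after the study's own thresholds. Printed CPM used TMM factors over all 96 libraries, log2 CPM a prior count of 2, and a count of 0 a floor of 3 counts. Intervals are at 95%, and intervals and floors cover counting error or the spread of these samples only.

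By rule the 9 genes could be named in every comparison. Of each pathway list the up to 4 called genes with the largest change in hippocampus at 3 dpi (TBI + VH against Sham + VH) were named, with every gene called in another region or at 29 dpi where there were 5 or fewer. Trf, Steap3 and Heph fall outside this rule and were named after their values were seen. Erythroid and choroid plexus markers were named where they moved with a gene, and the 3 genes most like each of the 9 were named by correlation. Alternatives were no filter, RLE size factors, a replicate block, a prior count of 0.5, the compared libraries alone, CPM without TMM factors, DESeq2 1.42.0, the adjusted p alone, a choroid plexus score as covariate, each library left out and, chosen after seeing the data, libraries above 1000 CPM of choroid plexus markers left out. The steps were tested on simulated data. The genome sites and lengths came from the GRCm38 (mm10) sequence with GENCODE annotation. Python 3.11.15, scipy 1.17.1 and matplotlib 3.10.9 were used for tables, exact tests and figures.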

Additional observations from a re-analysis of the deposited data

Results flagged for a closer look

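In 13 of the 216 groups of 4 libraries, counted over the 9 genes, the highest or lowest library lay farther from its neighbor than Dixon's 95% critical value allows. Chance alone marks about 1 group in 20. In the hippocampus at 3 dpi, TBI + CD replicate 3 was marked for Hmox1 (220 CPM, beside 18.7 to 32.5) and for Tfrc (81.5 CPM, beside 97.6 to 98.8). In the same set Sham + CD replicate 2 was low for Hp (0.0432 CPM from 1 count, beside 0.273 to 0.318). In the hippocampus at 29 dpi, Sham + VH replicate 1 was high for Cp (24.6 CPM, beside 12.4 to 13.7).

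In the thalamus, Hp was low in TBI + CD replicate 4 at 3 dpi (0.0931 CPM from 2 counts, beside 0.822 to 0.905). At 29 dpi Hmox1 was high in Sham + CD replicate 3 (4.38 CPM, beside 3.19 to 3.35), and Cp was high in TBI + CD replicate 4 (30.0 CPM, beside 15.7 to 17.8). In the hypothalamus at 3 dpi, TBI + VH replicate 2 was high for Ftl1 (104 CPM, beside 92.6 to 93.6) and for Cp (32.5 CPM, beside 15.9 to 18.3). Fth1 was low there in TBI + CD replicate 3 (688 CPM, beside 970 to 986), and Hpx was high in Sham + CD replicate 2 (0.379 CPM, beside 0.116 to 0.160). At 29 dpi Sham + CD replicate 4 was low for Hpx (0.0683 CPM, beside 0.202 to 0.219) and for Slc40a1 (5.05 CPM, beside 6.36 to 6.62).

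The injury effect in vehicle-treated mice differed between regions at 3 dpi by a direct test. For Ftl1 the hippocampus exceeded the thalamus by 0.81 and the hypothalamus by 0.81 on the log2 scale. For Slc11a1 the hippocampus exceeded the thalamus by 1.07 and the hypothalamus by 1.33.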

How the results depend on the processing

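Fold changes and levels of the 9 genes were recomputed under the alternatives, and no called value of them changed sign. Marker calls and correlations were not. Over 386 fold changes 8342 values kept their direction and side of the threshold, 121 lost it and 18 gained it, and 362 values that were not called changed sign. The causes of the changes below were not tested. With the choroid plexus score, the number of the 9 genes called in the hippocampus at 3 dpi after injury fell from 5 to 2 in vehicle mice. It fell from 5 to 3 in TBI + CD against Sham + VH (without Hmox1 and Slc40a1). Leaving out choroid-rich libraries keeps a single Sham + VH library there. In vehicle mice Hmox1 was then at 2.48 (2.17 with all libraries), Ftl1 at 0.97 (0.89) and Fth1 at 0.23 (0.34). In TBI + CD against Sham + VH Hmox1 was at 4.40 (3.78) and Slc40a1 at 0.75 (0.61). With choroid-rich libraries left out, the number called fell to 0 in the hippocampus of vehicle mice at 29 dpi and to 0 in the thalamus at 3 dpi (TBI + CD against Sham + VH). For the difference of injury effects at 3 dpi it fell to 0 against thalamus and to 1 (Slc11a1) against hypothalamus, and for regional levels to 1 (hippocampus against thalamus, 3 dpi), 2 (hippocampus against hypothalamus, 29 dpi) and 1 (thalamus against hypothalamus, 29 dpi). With the compared libraries alone it was 0 in the hippocampus of vehicle mice at 29 dpi and 0 in the thalamus for TBI + CD against Sham + VH, which was also 0 without a filter. Without a filter thalamus against hypothalamus at 3 dpi had 1. DESeq2 gave 1 (Slc11a1) and 2 (Cp and Slc11a1) at 29 dpi in the hippocampus for TBI + CD against Sham + VH and against Sham + CD, 1 (Hmox1) in the thalamus at 3 dpi for TBI + CD against Sham + CD, and 1 (Ftl1) for 3 against 29 dpi. The choroid plexus score gave 1 (Hmox1) for that thalamus comparison too.

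With 1 library left out, the counts ran from 2 to 5 in vehicle mice, 4 to 6 for TBI + CD against Sham + VH and 5 to 7 for TBI + CD against Sham + CD in the hippocampus at 3 dpi. At 29 dpi they ran from 0 to 1, 0 to 1 and 0 to 2. In the thalamus at 3 dpi TBI + CD against Sham + VH ran from 0 to 1. For injury effects at 3 dpi they ran from 1 to 2 (against thalamus) and 2 to 3 (against hypothalamus), and from 0 to 1 for 3 against 29 dpi. Regional levels ran from 2 to 4 (hippocampus against thalamus) and 0 to 2 (thalamus against hypothalamus) at 3 dpi, and from 3 to 4, 1 to 4 (hippocampus against hypothalamus) and 1 to 2 at 29 dpi.

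Libraries were treated as unpaired, because the labels do not say what a replicate number marks. Within a region and time, the correlation of deviations between same-numbered libraries was over 0.1 in 3 of 24 pairs in the hippocampus at 3 dpi. The most in any set was 14 of 24 (median 0.106), in the thalamus at 3 dpi, against 11 of 72 pairs of other numbers (median -0.028). A link between same-numbered libraries is therefore not excluded. These pairs lie within a region and cannot show whether regions of the same mouse share a number. The p-values of the regional comparisons assume independent libraries. The fit with a replicate block gave 1 call (Hmox1) in the thalamus at 3 dpi for TBI + CD against Sham + CD, Hp in hippocampus against thalamus was then at -1.55 (adjusted p = 0.051), and of the wider lists Cd163 lost its call in vehicle mice (adjusted p = 0.051). Levels moved by more than the replicate SD in 25 of 216 group means without TMM factors and in 9 with a prior count of 0.5. Depth limits Hp and Hpx, at a few counts a library.

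Of the wider iron lists in the hippocampus at 3 dpi, recomputed after seeing the data, 10 genes were called in vehicle mice, 5 with the choroid plexus score and 6 with the choroid-rich libraries left out. Steap1 changed sign with the score (0.23), Steap2 with those libraries left out (0.078) and Bmp6 with both (0.35 and 0.048). In candesartan-treated mice 12 were called, and 19 by the adjusted p alone. With 1 library left out the counts ran from 7 to 10 and from 12 to 13.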
